A study of Mus musculus with 12 samples.

Results

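MicroRNA loci are short genes whose RNA folds into a hairpin that is cut into a mature microRNA. A set of 335 such loci was described in the ventral spinal cord of mouse embryos, by spinal level and by Isl2 genotype. Members were all loci with a mouse symbol of the Mir or Mirlet7 series, host gene transcripts excluded, whose mean level over the 12 libraries was at least 0.5 TPM (the share of transcripts, scaled for length and depth). They made up 28.4% of the 1180 microRNA loci listed and belonged to 45777 listed genes. Of the other loci, 302 were listed at 0 in every library. The mean level over all libraries chose the members, so that a high or low mean is not a result here. A locus found at one spinal level alone entered the set through that level.

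The libraries were made from total RNA of ventral spinal cord at E12.5, trimmed around the Hb9::GFP reporter, a transgene that marks motor neurons (MNs). At each of the brachial (forelimb) and lumbar (hindlimb) levels, 3 libraries came from Isl2 +/- embryos, which carry 1 null allele and served as controls, and 3 from Isl2 KO embryos, which carry the null allele on both chromosomes in every cell. Isl2 is a LIM-homeodomain transcription factor of postmitotic MNs. The tissue also held progenitors, interneurons and other cells, so fewer cells of a type and less RNA per cell cannot be told apart. The study counted 3 animals of each genotype, so brachial and lumbar libraries may share animals, and the labels do not say which.

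A microRNA gene is first copied as a long primary transcript, often as part of an intron or exon of a host gene. The nuclear enzyme Drosha with its partner Dgcr8 cuts out the hairpin, Dicer trims it, and one strand is loaded into an Argonaute protein that represses messenger RNAs paired with its seed, bases 2 to 8. In developing neural tissue, miR-9 and miR-124 are known for neurogenesis, miR-218 for MNs, let-7 for the timing of differentiation, and miR-10 and miR-196 for their place inside the Hox clusters. Libraries of total RNA are built from longer fragments. The TPM of a hairpin locus therefore describes RNA that spans the locus, such as primary transcripts and host introns, and not the amount of mature microRNA.

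The mature sequences that define the loci discussed most are shown first, 5′ to 3′, from RefSeq (GRCm38.p6), with the seed in capitals. Mature products were read for 304 of the 335 members. They were 540 products with 483 different seeds, of which 41 were shared by 2 or more member loci. The Hox-cluster loci gave 3 seeds among their main products: Mir10a and Mir10b share one, and the products of Mir196a-1 and Mir196a-2 are the same.
miR-10a-5p: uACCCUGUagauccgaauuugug
miR-10b-5p: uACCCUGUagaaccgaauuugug
miR-196a-5p: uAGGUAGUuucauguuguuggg
miR-615-3p: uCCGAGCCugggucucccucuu

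The neural set was chosen for its known roles, and the RefSeq table gives the let-7 seed for 6 member loci, Mirlet7a-1, Mirlet7c-1, Mirlet7d, Mirlet7f-1, Mirlet7i and Mir98. Mirlet7a-2, for which the table gives the 3′ product, is also known to encode let-7a, so its 5′ product carries the let-7 seed too. Mir99a and Mir100 share another.
let-7a-5p: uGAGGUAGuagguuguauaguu
let-7a-2-3p: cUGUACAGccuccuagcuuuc
let-7f-5p: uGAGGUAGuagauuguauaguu
miR-9-5p: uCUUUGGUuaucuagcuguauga
miR-9-3p: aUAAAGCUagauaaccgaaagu
miR-128-3p: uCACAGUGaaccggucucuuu
miR-218-5p: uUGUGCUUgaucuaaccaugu
miR-125b-5p: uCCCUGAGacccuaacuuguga
miR-99a-5p: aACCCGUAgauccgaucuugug
miR-100-5p: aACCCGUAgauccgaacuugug
miR-134-5p: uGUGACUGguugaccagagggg

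The loci of the Mir17 to Mir92 cluster are shown because neighbours in one transcript carry different seeds. Mir17 and Mir19b-1 also differed in opposite directions between genotypes at the lumbar level, though neither passed an adjusted p under 0.05. Mir17 and Mir20a share a seed with Mir93 and Mir106b, the paralogs inside Mcm7, and Mir19a shares one with Mir19b-1.
miR-17-5p: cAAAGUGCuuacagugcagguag
miR-18a-5p: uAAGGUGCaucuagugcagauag
miR-19a-3p: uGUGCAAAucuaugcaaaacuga
miR-20a-5p: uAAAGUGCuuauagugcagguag
miR-19b-3p: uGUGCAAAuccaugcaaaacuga
miR-106b-5p: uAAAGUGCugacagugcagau

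Behind these values stood 4.49 to 6.64 gigabases of aligned sequence per library. Members took between 0.121% and 0.186% of a library's TPM. Both extremes were KO libraries, the lowest lumbar replicate 2 and the highest brachial replicate 2. Brachial KO replicate 2 also had the smallest share of 5 abundant structural RNAs (Rn7sk, Rn7s1, Rn7s2, Rmrp and Rpph1), 23.7% against 30.85% to 38.2% in the others, and results that rest on it are given without it as well where it decides them. To compare libraries, TPM was divided by a size factor for each library, which is called rescaled TPM. Isl2, the targeted gene, stood at 8.69, 8.29 and 9.68 rescaled TPM in brachial Isl2 +/- libraries and at 6.01, 7.25 and 4.46 in KO libraries. In lumbar libraries it stood at 10.3, 8.40 and 9.39 in Isl2 +/- and at 7.30, 6.51 and 8.21 in KO. The null allele replaces part of the gene, so reads need not fall to 0. The genotypes did not overlap at either level (exact permutation test, two-sided, p = 0.1 at each level, the smallest that 3 against 3 allows). MN markers such as Mnx1 and Isl1 were above 0 in all 12 libraries, while of 6 skeletal muscle markers Myod1 was listed at 0 in all 12 and Acta1 and Tnnt1 were above 0 in all 12, and their summed level ran from 0.969 to 2.34.

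The typical member was low and thinly covered. Mean levels ran from 0.509 to 197 TPM with a median of 1.40, and 217 members averaged at least 1 TPM while 23 averaged at least 10. The hairpins were 39 to 139 bases long with a median of 76, and their mean coverage ran from 1.17 to 586 reads per base with a median of 3.91. Mean coverage was under 3 for 136 members and under 10 for 254, and 236 members were above 0 in all 12 libraries. Variation between libraries fell with coverage: the median coefficient of variation was 78.2% for members under 3 reads per base, 55.1% from 3 to 10 and 29.3% at 10 or more. At the boundary, Mir1953, Mir466b-3 and Mir6911 averaged 0.509, 0.509 and 0.514 TPM and were members. Mir1933, Mir466b-5 and Mir6925 averaged 0.4995, 0.4989 and 0.4975 TPM and were not.

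Most members lay inside longer genes. By the GENCODE vM21 annotation and the spans of the listed genes, 193 sat in an intron and 93 overlapped an exon of a gene on the same strand, 38 lay outside other genes, 7 lay in an intron and 4 in an exon of a gene on the other strand. The median level was 2.48 TPM for those in exons of the same strand, 1.09 for those in introns and 2.18 for those outside other genes. For 184 intronic members with a host among the listed genes, the locus reached a median of 0.0559 times the TPM of its host, and 4 exceeded their host. For 59 in exons, the median was 0.0666 times the host, and 1 exceeded it. Reads over an exon can come from the host messenger RNA, so these values do not separate a hairpin from its host.

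The 10 loci of highest mean level held 38.1% of the summed TPM of the members. Mir3064, in an exon of Ddx5 that includes untranslated sequence (chr11:106782693-106782759, minus strand), alone held 14.3%. Ddx5 encodes an RNA helicase of the Drosha complex. Mir3064 ranged from 159 to 206 rescaled TPM in the brachial KO libraries and from 175 to 197 in the brachial Isl2 +/- libraries, so the genotypes overlapped. The next were Mir703, Mir3093, Mir6516, Mir6935, Mir7652, Mir134, Mir684-1, Mirlet7f-1 and Mir7036. Mir3093 averaged 56.8 TPM, while Mir9-1, which lies in an intron of Gm3764 as well, beside it, averaged 8.0. Mir6516 (43.2 TPM) overlaps Snhg20, a host of small nucleolar RNAs, and Mir6935 overlaps Actg1, which encodes cytoplasmic actin. In all, 10 members overlapped an exon of a small nucleolar or Cajal body RNA gene on the same strand, so their reads cannot be told apart from that RNA. They were Mir6516, Mir677, Mir5121, Mir3069, Mir3084-2, Mir1839, Mir1949, Mir1291, Mir3068 and Mir3084-1.

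**Figure D1:**
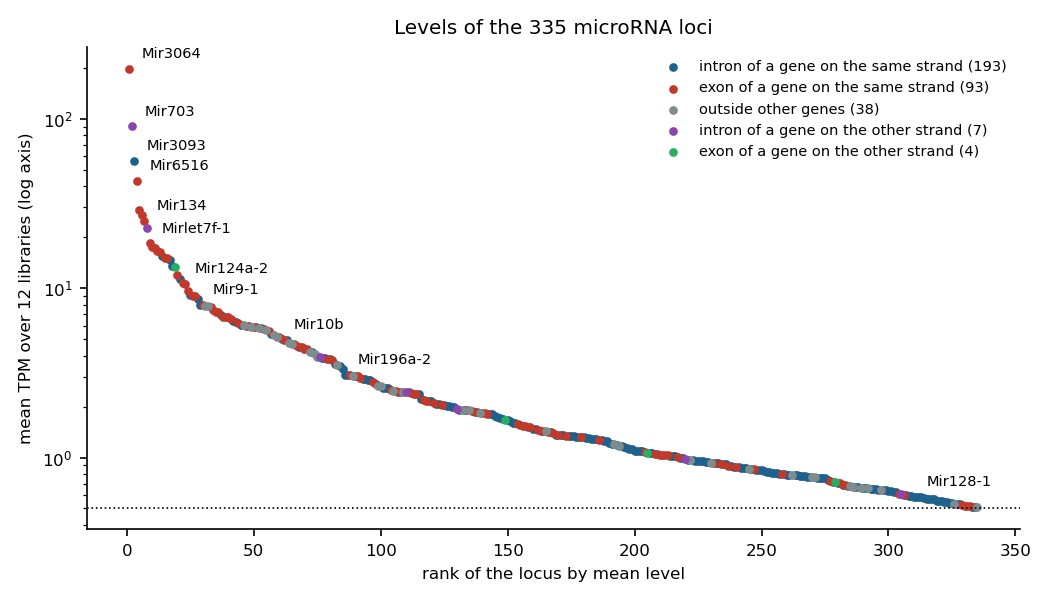
Mean TPM over the 12 libraries (log axis) of each member against its rank, coloured by where the GENCODE annotation places it, with the number of loci in parentheses. The curve falls from Mir3064 at 197 TPM to the minimum of 0.5 TPM (dotted line), and 23 loci lie at 10 TPM or more.

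Spinal level was asked first, because microRNA loci sit inside the Hox clusters, whose genes mark position along the body axis. Of 335 members, 9 were higher and 3 lower in the lumbar libraries at an adjusted p under 0.05 (limma, genotype as covariate, Benjamini-Hochberg over all genes). These are 2.69% and 0.896% of the members, against 8.88% higher and 9.65% lower, 18.5% in all, among the 16736 genes tested. The median difference, lumbar minus brachial, was 0.06 on the log2 scale for members and 0.01 for all genes. The values of the levels did not overlap for 2 members, against 8.32% of all genes, and these were Mir196a-1 and Mir196a-2. One level averaged under 0.5 TPM for 44 of the 335 members, among them 2 of the 9 higher and 2 of the 3 lower. Such a locus entered the fit through the other level and had to differ, so its call is a description and not support for a difference. Without brachial Isl2 +/- replicate 2, or without lumbar Isl2 +/- replicate 1, 5 members were higher in place of 9.

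Mir196a-2 lies in the HoxC cluster (chr15:102973350-102973434, plus strand) in an intron of a long form of Hoxc5, near Hoxc9 and Hoxc10. In the brachial cord it was listed at 0 in 5 of 6 libraries and at 0.08 rescaled TPM in KO replicate 2. In the lumbar cord it stood at 7.23, 5.65 and 4.67 in Isl2 +/- and at 9.07, 6.52 and 5.02 in KO, so the levels were far apart while the genotypes overlapped. Mir196a-1 lies in the HoxB cluster (chr11:96265164-96265265, plus strand), in an intron of a gene on the other strand. It was listed at 0 in 5 of 6 brachial libraries and at 0.02 in Isl2 +/- replicate 1. Its lumbar values were 6.86, 5.35 and 4.95 in Isl2 +/- and 5.01, 2.69 and 5.51 in KO. On the log2(TPM + 0.1) scale the differences were 5.84 ± 0.21 (SE) for Mir196a-2 and 5.59 ± 0.21 for Mir196a-1, sizes that the added constant sets. Both entered the fit through the lumbar libraries, so these differences are descriptions.

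The genes beside the Mir196a loci, chosen by position after these values were seen, did not all follow them. Hoxc10 was listed at 0 in all 6 brachial libraries and ran from 25.9 to 49.0 rescaled TPM at the lumbar level. Hoxc9, also near Mir196a-2, ran from 19.2 to 30.9 in brachial and from 21.4 to 32.5 in lumbar libraries. Hoxb9, near Mir196a-1, ran from 57.3 to 161 in brachial and from 72.9 to 116 in lumbar libraries, so that it overlapped between levels while Mir196a-1 did not. Mir196b, in the HoxA cluster, was no member at a mean of 0.206 TPM. It was above 0 in 1 of 6 brachial and in 6 of 6 lumbar libraries, with 1.19 rescaled TPM in lumbar KO replicate 3 as its highest value.

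The 3 other members of the Hox clusters were transcribed at both levels. Mir10a, in an intron of Hoxb3 (chr11:96317165-96317274, plus strand), averaged 2.08 ± 0.802 (SD, n = 6) rescaled TPM in brachial and 3.39 ± 1.14 in lumbar libraries. Its log2 difference of 0.72 ± 0.24 (SE) missed the threshold (adjusted p = 0.0525 by limma). Mir10b, in Hoxd4 (chr2:74726070-74726137, plus strand), averaged 4.26 ± 2.02 and 5.47 ± 1.75, a log2 difference of 0.45 ± 0.33 (adjusted p = 0.373). Mir615, in an intron of Hoxc5 (chr15:103014910-103015001, plus strand), averaged 4.14 ± 0.557 and 2.88 ± 1.60, a log2 difference of -0.66 ± 0.29 (adjusted p = 0.131). Their hosts differed between levels by 0.70 for Hoxd4 (adjusted p = 3.63e-06), -1.65 for Hoxc5 (adjusted p = 1.46e-06) and -0.01 for Hoxb3 (adjusted p = 0.927) on the log2 scale. Mir196a-1 and Mir196a-2 were too low to be tested between genotypes at the brachial level, and 0 of 3 Hox-cluster members tested there and 0 of 5 tested in lumbar libraries passed the threshold between genotypes. Of all genes, 0.874% were lower and 2.23% higher in brachial KO, and 0.793% and 0.975% in lumbar KO.

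**Figure D2:**
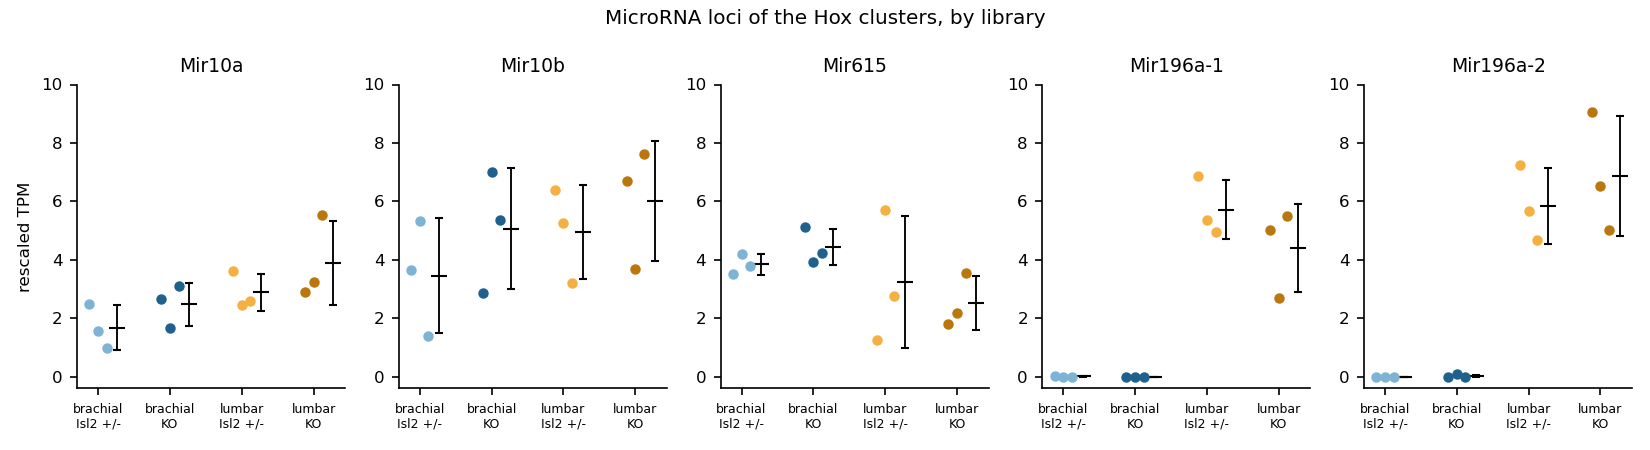
Rescaled TPM of the 5 Hox-cluster members in each library (points), with the mean and SD of each group of 3 (bars at the right of the points). Mir196a-1 and Mir196a-2 lie at or near 0 in the 6 brachial libraries and between 2.69 and 9.07 in the 6 lumbar ones, while Mir10a, Mir10b and Mir615 overlap between levels.

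Besides Mir196a-1 and Mir196a-2, the members higher at the lumbar level were Mir6516, Mir677, Mir3084-2, Mir124a-2, Mir350, Mir7651 and Mir7664. Alternatives, such as other scalings or single libraries left out, were run for the named loci. The call of Mir7651 was lost in 13 of 21 alternatives, that of Mir124a-2 in 7 and that of Mir6516 in 5. Mir677, Mir3084-2, Mir350, Mir7651 and Mir7664 are named after their values were seen. Mir677 (chr10:128085286-128085363, plus strand), inside Atp5b, ran from 5.97 to 9.48 rescaled TPM in brachial and from 9.43 to 13.4 in lumbar libraries, a log2 difference of 0.72 ± 0.12 (limma adjusted p = 0.00183). Brachial KO replicate 3 was the library that overlapped the lumbar values. Mir6516 averaged 31.8 ± 10.2 in brachial and 55.0 ± 15.1 in lumbar libraries, a log2 difference of 0.82 ± 0.23 (limma adjusted p = 0.0258). Mir677, Mir6516 and Mir3084-2 are among the members that overlap small nucleolar RNA genes. Their hosts Atp5b, Snhg20 and Eif3a differed by 0.05, 0.14 and -0.07 and did not pass the threshold. Mir7664, in an intron of Nsmf, differed by 1.79 ± 0.57 (limma adjusted p = 0.0465), while Nsmf differed by -0.18 (adjusted p = 0.0356).

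Mir124a-2, the locus of miR-124 with the highest level, lies in an exon of Mir124-2hg (chr3:17795662-17795770, plus strand). It stood at 8.80, 7.26 and 9.15 rescaled TPM in brachial Isl2 +/- and at 9.94, 12.01 and 6.88 in brachial KO libraries. The lumbar values were 13.1, 10.3 and 12.3 in Isl2 +/- and 10.9, 11.9 and 15.2 in KO. The lumbar values were higher on the whole but overlapped the brachial ones, with a log2 difference of 0.46 ± 0.13 (limma adjusted p = 0.0301). Its host differed by 0.14 (adjusted p = 0.148).

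The members lower at the lumbar level were Mir127, Mir125b-2 and Mir154. Mir127, on the strand opposite to Rtl1 in the imprinted locus of chromosome 12, averaged 1.01 ± 0.494 rescaled TPM in brachial and 0.362 ± 0.289 in lumbar libraries, a log2 difference of -1.37 ± 0.38 (limma adjusted p = 0.0266). Mir125b-2, in an exon of C130023A14Rik, averaged 1.498 ± 0.990 and 0.506 ± 0.456, a log2 difference of -1.60 ± 0.48 (limma adjusted p = 0.0354). Mir154, inside Mirg, averaged 4.76 ± 0.810 and 2.76 ± 1.49, a log2 difference of -0.93 ± 0.30 (limma adjusted p = 0.0474). The call of Mir154 was lost in 14 of 21 alternatives, that of Mir125b-2 in 8 of 21 and that of Mir127 in 5 of 20. All 3 overlapped between levels. In TPM as deposited, Mir127 averaged 0.345 and Mir125b-2 averaged 0.493 at the lumbar level, so both entered the fit through the brachial libraries and their calls are descriptions. Without brachial Isl2 +/- replicate 3, or without lumbar Isl2 +/- replicate 1, 6 members were lower in place of 3. Without brachial Isl2 +/- replicate 2, or without brachial KO replicate 2, 0 members were lower, and without lumbar Isl2 +/- replicate 3, 1 was.

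Of 45 neural loci listed, 24 were members, from 0.556 to 24.98 TPM. The order by mean level was led by Mir134, Mirlet7f-1, Mir124a-2, Mir99a and Mir9-1. Neighbours in this order often overlapped: Mir99a ran from 4.82 to 14.6 and Mir9-1 from 5.47 to 11.1 rescaled TPM over the 12 libraries. Of 24 tested, 1 was higher (Mir124a-2) and 1 lower (Mir125b-2) at the lumbar level, against 8.88% and 9.65% of all genes, with a median log2 difference of 0.06 beside 0.01 for all genes. Mir125b-2 entered that fit through the brachial libraries. Between genotypes, 1 of 23 tested was lower and 1 higher in brachial KO, against 0.874% and 2.23% of all genes, and 1 of 22 was lower and 1 higher in lumbar KO, against 0.793% and 0.975%. The lumbar calls, Mir30d and Mir128-1, entered that fit through the genotype with the higher values, so they are descriptions.

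Several microRNAs are encoded at more than one locus. Mir9-1, in an intron of Gm3764, averaged 7.20 ± 1.62 (brachial) and 8.63 ± 1.68 (lumbar) rescaled TPM, and Mir9-3, inside Mir9-3hg, averaged 2.11 ± 1.43 and 2.12 ± 1.25. Mir9-2 was listed at a mean of 0.00116 TPM. The MN-enriched miR-218 is encoded in introns of Slit2 and Slit3, genes for secreted axon guidance cues. Mir218-1 in Slit2 ran from 0.398 to 6.97, and Mir218-2 in Slit3 from 1.76 to 5.01 over the 12 libraries, which overlapped. In brachial libraries, Mir218-1 stood at 1.82, 3.38 and 1.38 in Isl2 +/- and at 1.61, 6.97 and 4.06 in KO, and the genotypes overlapped at both levels for Mir218-1 and Mir218-2.

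Some well-known hairpins were listed near 0 while their host was not. Mir124a-1 averaged 1.96e-05 TPM, while its host Mir124a-1hg averaged 27.3 TPM. Mir92-1 averaged 0.00425 TPM, while its host Mir17hg averaged 19.8 TPM. How the quantification shared reads between a hairpin and an overlapping transcript was not given in the sources used here, so that no absence of transcription can be read from them.

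**Figure D3:**
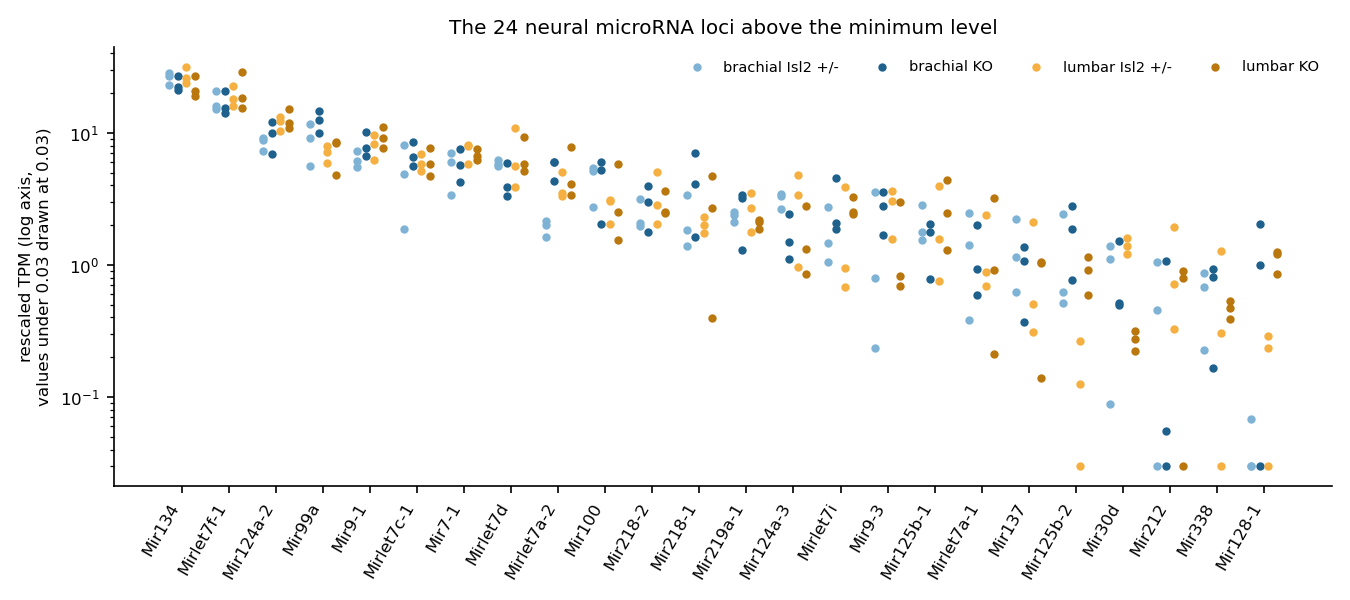
Rescaled TPM (log axis) of the 24 neural members in each of the 12 libraries, ordered by mean level and coloured by group. Spread between libraries of a group widens from Mir134, at 18.8 to 31.5, to the loci near 1 TPM. The loci past the threshold between genotypes were Mirlet7a-2 and Mir124a-3 among 23 tested in brachial libraries. In lumbar libraries they were Mir30d and Mir128-1 among 22 tested, which entered that fit through the genotype with the higher values.

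Whether loss of Isl2 was accompanied by changes at these loci was asked at each level with the threshold of the study, a log2 difference beyond 0.5 and an unadjusted p under 0.05. At the brachial level 321 members were tested, of which 9 were lower and 32 higher in KO, 2.80% and 9.97%. Over all 16935 genes tested, 0.874% were lower and 2.23% higher. By the unadjusted p alone, 43 members passed, 13.4% against 13.8% of all genes. No member passed an adjusted p under 0.05 (limma), as did 0.00590% of all genes, and the genotypes did not overlap for 29 members, 9.03% against 20.0% of all genes. The median log2 difference was 0.16 for members and -0.01 for all genes. The fit kept loci by their mean over both genotypes, so a locus with one genotype under 0.5 TPM entered through the other and had to differ. This holds for 56 of the 321 members tested, among them 1 of the 9 lower and 12 of the 32 higher members, and these calls are descriptions and not support for a difference. Without brachial KO replicate 2, 21 members were higher in place of 32. Without brachial KO replicate 1, 45 were higher, and 17 were lower in place of 9.

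At the lumbar level 305 members were tested, and 10 were lower and 20 higher in KO, 3.28% and 6.56%, against 0.793% and 0.975% of 16511 genes. By the unadjusted p alone 33 passed, 10.8% against 4.88%, and no member passed an adjusted p under 0.05 (limma). The genotypes did not overlap for 28 members, 9.18% against 9.93% of all genes. The median log2 difference was 0.08 for members and -0.01 for all genes. One genotype averaged under 0.5 TPM for 34 of the 305 members tested, among them 3 of the 10 lower and 7 of the 20 higher members, with the same limit. In place of 10, 20 members were lower without lumbar Isl2 +/- replicate 3, 18 without lumbar KO replicate 1 and 16 without lumbar KO replicate 3. In place of 20, 31 were higher without lumbar Isl2 +/- replicate 1 and 32 without lumbar KO replicate 2. Mir6975 was the 1 locus past the threshold in the same direction at both levels, among 291 members tested at both. That is 0.344% higher at both, against 0.0801% of the 16234 genes tested at both, and 0 members were lower at both, against 0.0616%.

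The size of the differences fell as coverage rose at both levels. At the brachial level the median size of the log2 difference was 0.78 for 124 members under 3 reads per base, 0.58 for 116 members from 3 to 10 and 0.21 for 81 members at 10 or more. The shares past the threshold in these ranges were 13.7%, 12.1% and 12.3%. Of the 32 higher members, 16 had under 3 reads per base and 5 had 10 or more. Of the 9 lower members, 1 had under 3 and 5 had 10 or more. At the lumbar level 5 lower and 7 higher members had under 3 reads per base, 4 and 11 had from 3 to 10, and 1 and 2 had 10 or more. The median size of the log2 difference in these ranges was 0.79, 0.50 and 0.17, and the shares past the threshold were 11.3%, 12.7% and 3.70%.

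**Figure D4:**
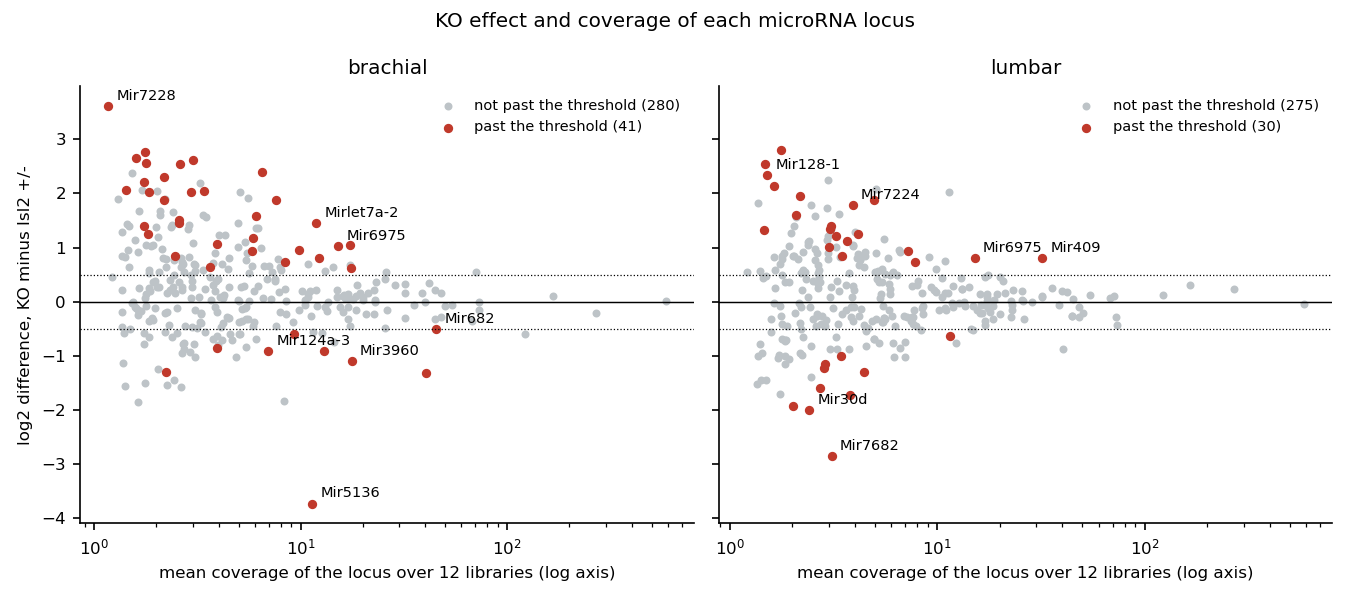
Log2 difference, KO minus Isl2 +/-, of each tested member against its mean coverage over the 12 libraries (log axis), at the brachial (left) and lumbar (right) level, with the dotted lines at 0.5 and -0.5. At the brachial level 75.6% of the members past the threshold (red) lie under 10 reads per base, as do 74.8% of all members tested there, and in lumbar libraries 27 of 30 do, against 73.4% of those tested. The median size of the difference falls from 0.78 under 3 reads per base to 0.21 at 10 or more (brachial) and from 0.79 to 0.17 (lumbar).

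Among the higher members of the brachial level, Mirlet7a-2 had the smallest p. It lies in an intron of Mir100hg, the host transcript of the let-7a-2, miR-100 and miR-125b-1 hairpins (chr9:41536716-41536811, plus strand), and its 3′ product is printed above. It stood at 2.01, 1.61 and 2.16 rescaled TPM in Isl2 +/- and at 4.35, 6.05 and 5.97 in KO, with no overlap and a log2 difference of 1.45 ± 0.19 (SE, unadjusted p = 8.85e-05, limma adjusted p = 0.300). The lumbar values were 5.01, 3.50 and 3.31 in Isl2 +/- and 4.1, 3.40 and 7.77 in KO, and the genotypes overlapped. The lumbar Isl2 +/- libraries thus lay above all brachial Isl2 +/- libraries. The loci beside it in the same host gave no such difference at the brachial level. Mir100 differed by -0.07 ± 0.43, Mir125b-1 by -0.45 ± 0.38 and the host itself by 0.28 (unadjusted p = 0.0863 in limma).

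The other let-7 members did not pass the threshold at either level. Mirlet7f-1, at 18.4 TPM the let-7 locus of highest level, differed by -0.06 ± 0.17 in brachial and 0.11 ± 0.23 in lumbar libraries. Mirlet7d, in the same cluster, differed by -0.46 ± 0.21 and 0.08 ± 0.37. Mirlet7c-1, in the host of Mir99a, differed by 0.68 ± 0.47 and 0.01 ± 0.20.

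Mir124a-3 (chr2:180894040-180894107, plus strand) was among the lower members of the brachial level. It stood at 2.65, 3.43 and 3.33 rescaled TPM in Isl2 +/- and at 2.43, 1.11 and 1.49 in KO, a log2 difference of -0.92 ± 0.29 (unadjusted p = 0.0128, limma adjusted p = 0.359). The gap between genotypes was narrow, 2.65 against 2.43. The lumbar values were 3.39, 4.78 and 0.970 in Isl2 +/- and 0.852, 1.32 and 2.78 in KO, which overlapped. Mir124a-2 differed by 0.16 ± 0.20 at the brachial level and did not pass the threshold.

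The other lower members named by the rule were Mir3960, Mir682, Mir1949 and Mir1291. Mir3960 lies in an exon of Cdk9 that includes untranslated sequence (chr2:32712900-32712972, minus strand). It stood at 10.4, 8.45 and 8.65 rescaled TPM in Isl2 +/- and at 6.16, 3.68 and 3.29 in KO, a log2 difference of -1.10 ± 0.23 (limma adjusted p = 0.359). Cdk9, the kinase that releases paused RNA polymerase, differed by -0.08 (unadjusted p = 0.356 in limma). Mir682, one of the better covered loci at 45.2 reads per base, stood at 14.5, 15.0 and 19.2 in Isl2 +/- and at 12.1, 10.2 and 11.6 in KO, a log2 difference of -0.51 ± 0.13 (limma adjusted p = 0.359). Mir1949 and Mir1291, which overlap small nucleolar RNA genes, differed by -0.92 ± 0.31 and -0.60 ± 0.22.

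The other higher members named by the rule were Mir7228, Mir6975, Mir7237 and Mir7651, of which Mir6975 alone averaged more than 10 reads per base. Mir6975, in an intron of Ddx39b (chr17:35244075-35244135, plus strand), stood at 4.05, 3.16 and 2.76 rescaled TPM in brachial Isl2 +/- and at 5.63, 7.16 and 7.75 in KO. Its lumbar values were 3.83, 3.50 and 4.30 in Isl2 +/- and 7.21, 9.50 and 4.60 in KO. The genotypes did not overlap at either level, with log2 differences of 1.02 ± 0.19 and 0.80 ± 0.25 (limma adjusted p = 0.359 and 0.999). Ddx39b, a splicing helicase, differed by 0.00 and 0.07. Mir7228, the shortest member at 39 bases, was listed at 0 in the 3 brachial Isl2 +/- libraries and stood at 0.490, 2.44 and 1.14 in KO. It entered the brachial fit through the KO libraries alone. In the lumbar KO libraries it stood at 2.22, 0 and 0.

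One lower locus at the brachial level, Mir5136, was singled out after its values were seen. It stood at 8.84, 8.45 and 10.4 rescaled TPM in the Isl2 +/- libraries and at 9.24 in KO replicate 1, but at 0.106 and 0.0761 in KO replicates 2 and 3. Among lumbar libraries it stood at 9.21 in KO replicate 1 and between 0.0633 and 0.0964 in the other 5 libraries. Its values fell into 2 ranges that crossed both the level and the genotype labels, and the log2 difference of -3.74 was the largest in size among the members tested at the brachial level.

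In the lumbar libraries, Mir30d had the smallest p among the lower members. It lies in exons of Gm20732 and Gm37296 (chr15:68341208-68341289, minus strand). It stood at 1.60, 1.39 and 1.21 rescaled TPM in Isl2 +/- and at 0.221, 0.316 and 0.274 in KO, with no overlap and a log2 difference of -2.02 ± 0.30 (unadjusted p = 0.000148, limma adjusted p = 0.513). Brachial values were 1.39, 0.0885 and 1.10 in Isl2 +/- and 0.518, 1.504 and 0.501 in KO, which overlapped. Its mean coverage was 2.41 reads per base, and it entered the lumbar fit through the Isl2 +/- libraries, since the KO libraries averaged 0.258 TPM.

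The other lower members named by the rule were Mir7682, Mir3100, Mir6944 and Mir6988, which lie in introns of Trmt1l, Dmpk, Dbn1 and Syvn1. Mir7682 and Mir3100 entered the lumbar fit through the Isl2 +/- libraries as well, with KO means of 0.280 and 0.287 TPM. Mir6944 stood at 3.00, 3.58 and 3.81 rescaled TPM in Isl2 +/- and at 0.598, 0.663 and 2.18 in KO, a log2 difference of -1.73 ± 0.43 (limma adjusted p = 0.986). Its host Dbn1, which encodes the actin-binding protein drebrin, averaged 238 TPM and differed by -0.07. The hosts of the other 3 differed by between -0.13 and 0.10 on the log2 scale and did not pass the threshold.

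The higher members named by the rule were Mir7224, Mir325, Mir6977, Mir1190 and Mir128-1. Mir7224, in an intron of B3galt1 (chr2:67675457-67675516, plus strand), stood at 0.507, 0.525 and 0.825 rescaled TPM in Isl2 +/- and at 2.34, 1.91 and 2.79 in KO, a log2 difference of 1.78 ± 0.27 (limma adjusted p = 0.513). B3galt1 differed by -0.01. In brachial libraries Mir7224 differed by -0.64 ± 0.68 and B3galt1 by 0.75. Mir128-1, in an intron of R3hdm1 (chr1:128202361-128202430, plus strand), gives the neuronal miR-128. It stood at 0.287, 0.233 and 0 in Isl2 +/- and at 1.24, 0.853 and 1.21 in KO, a log2 difference of 2.34 ± 0.56 (unadjusted p = 0.00309, limma adjusted p = 0.986). It entered the lumbar fit through the KO libraries, since Isl2 +/- averaged 0.171 TPM. Its brachial values were 0, 0.0686 and 0 in Isl2 +/- and 1.001, 0 and 2.06 in KO. R3hdm1 differed by 0.16 (unadjusted p = 0.527 in limma) at the lumbar and by 0.61 (unadjusted p = 0.0488) at the brachial level.

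Across all members with a host, loci and hosts were set side by side within each comparison. At the brachial level 131 of 231 members had the sign of their host, at the lumbar level 110 of 221, and between levels 148 of 242. The median size of the log2 difference was 0.58 for loci and 0.13 for hosts in brachial, and 0.52 and 0.07 in lumbar libraries. Members of one host are not independent, and the 231 members had 200 hosts.

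The effect of genotype was compared between levels with an interaction term. Of 335 members, 32 passed an unadjusted p under 0.05, 9.55% against 4.42% of all genes, and none passed an adjusted p under 0.05 (limma). Without brachial KO replicate 2, 19 passed in place of 32. Those past the unadjusted threshold included Mirlet7a-2, Mir30d, Mir9-3, Mir17, Mir7224, Mir6944, Mir3100, Mir7682 and Mir7237. Mir9-3 differed by 1.37 ± 0.78 in brachial and -1.03 ± 0.54 in lumbar libraries, past the threshold at neither, and its interaction was -2.40 ± 1.07 (unadjusted p = 0.0449, limma adjusted p = 0.811). It missed the unadjusted threshold in 12 of 21 alternatives. With single libraries left out it ran from -3.32 to -1.59, and it missed the threshold without replicate 2 or 3 of brachial Isl2 +/- or of brachial KO, without replicate 1 or 2 of lumbar Isl2 +/-, and without replicate 1 or 3 of lumbar KO. The smallest size, -1.59, was the value without brachial Isl2 +/- replicate 2. The interaction of Mirlet7a-2 was -1.15 ± 0.39 (unadjusted p = 0.0130, limma adjusted p = 0.811).

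The Mir17 to Mir92 cluster and its paralogs, which are known to promote proliferation of progenitors, had 8 members of 15 loci listed. Mir17, Mir18, Mir19a, Mir20a and Mir19b-1 lie in exons of Mir17hg, yet their mean levels ran from 1.04 TPM for Mir17 to 11.99 TPM for Mir19a. Of the 8, 1 was lower (Mir17) and 1 higher (Mir19b-1) in lumbar KO, against 0.793% and 0.975% of all genes, and 0 passed in brachial KO, against 0.874% and 2.23%. Mir17 stood at 1.25, 1.16 and 2.71 rescaled TPM in Isl2 +/- and at 1.04, 0.443 and 0.608 in KO, a log2 difference of -1.15 ± 0.41 (limma adjusted p = 0.999). Mir19b-1 stood at 1.46, 2.41 and 1.62 in Isl2 +/- and at 4.16, 2.05 and 5.14 in KO, a log2 difference of 0.94 ± 0.35 (limma adjusted p = 0.999). The genotypes overlapped for Mir19b-1, and its call was lost in 6 of 16 alternatives, that of Mir17 in 3 of 16. Between them on the chromosome, Mir18, Mir19a and Mir20a differed by 0.17 ± 0.16, 0.25 ± 0.25 and 0.15 ± 0.16 and did not pass the threshold. Mir17hg differed by 0.44 (unadjusted p = 0.0325 in limma). Between levels 0 of the 8 passed, against 18.5% of all genes, while Mir17hg (log2 difference 0.50) and Mcm7 (0.50), the host of Mir25, Mir93 and Mir106b, were higher at the lumbar level.

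The imprinted locus of chromosome 12 held 44 members among its 60 listed loci, from the start of Meg3 to the end of Mirg (chr12:109540996-109749458). Meg3, Rian and Mirg are long noncoding RNAs expressed from the maternal chromosome. The members ranged from 0.664 to 24.98 TPM, with Mir134, Mir377 and Mir485 among the highest. Their summed level ran from 253.9 to 291.4 rescaled TPM in brachial Isl2 +/-, 225.1 to 331.5 in brachial KO, 225.5 to 288.9 in lumbar Isl2 +/- and 212.6 to 280.4 in lumbar KO libraries, and all groups overlapped.

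Of these 44, 1 was lower (Mir432) and 1 higher (Mir376c) in brachial KO libraries, against 0.874% and 2.23% of all genes, with a median log2 difference of -0.08 beside -0.01 for all genes. In the lumbar libraries, 0 of 43 were lower and 1 higher (Mir409), against 0.793% and 0.975% of all genes, with a median of -0.11. Mir134, a brain-enriched microRNA, stood at 26.9, 23.1 and 28.3 in brachial Isl2 +/- and at 21.1, 26.96 and 22.2 in KO, which overlapped. Mir376c stood at 3.70, 4.60 and 4.41 in brachial Isl2 +/- and at 7.63, 7.14 and 5.06 in KO, with no overlap and a log2 difference of 0.61 ± 0.18 (limma adjusted p = 0.359). Its lumbar values were 5.19, 5.44 and 5.27 in Isl2 +/- and 8.47, 5.35 and 9.30 in KO, which overlapped. Mir432, opposite to Rtl1, stood at 14.1, 8.79 and 45.9 in brachial Isl2 +/- and at 6.22, 6.18 and 9.44 in KO, so that Isl2 +/- replicate 3 set most of the difference. The lumbar Isl2 +/- replicate 3 was high as well, at 34.1 against 8.30 and 8.37 in the other Isl2 +/- libraries.

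**Figure D5:**
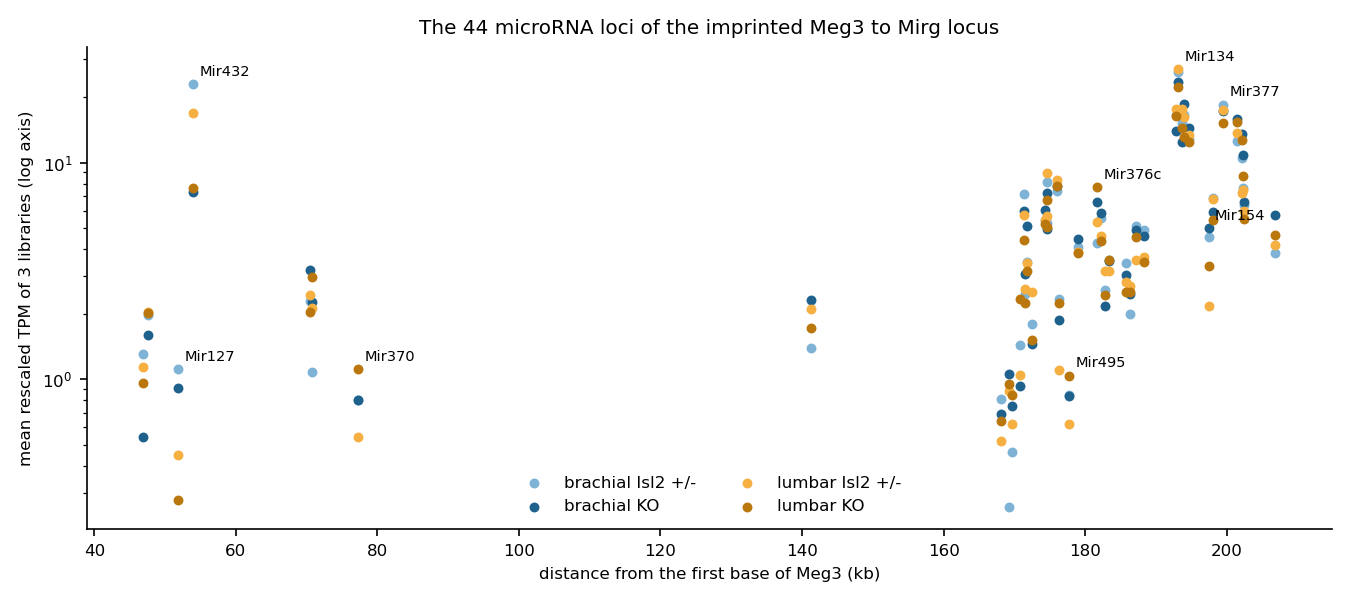
Mean rescaled TPM of each group of 3 libraries (log axis) for the 44 members of the imprinted locus against distance from the first base of Meg3. Most members crowd toward the Mirg end, and the groups of a locus mostly lie close together, Mir432 apart.

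Loci known from other cell types were few. Of the erythroid loci, Mir451a was a member and Mir144 and Mir451b were not. Mir451a stood at 0, 0 and 0.541 rescaled TPM in brachial Isl2 +/- and at 2.04, 0.282 and 2.39 in KO, a log2 difference of 2.77 ± 0.96 with overlapping genotypes (limma adjusted p = 0.359). It entered the brachial fit through the KO libraries, since Isl2 +/- averaged 0.169 TPM. The summed level of 6 erythroid genes, Hbb-y and Hba-a1 among them, ran from 1948 to 3510 in these Isl2 +/- libraries and from 2775 to 5904 in the KO libraries, and its part in the result was not tested. The endothelial Mir126a, in an exon of Egfl7, stood at 1.39, 0 and 0 in brachial Isl2 +/- and at 1.65, 1.68 and 0.995 in KO, a log2 difference of 2.61 ± 0.999 (limma adjusted p = 0.359). It also entered that fit through KO, with an Isl2 +/- mean of 0.459 TPM. The summed level of 5 endothelial genes ran from 59.3 to 63.2 and from 50.85 to 63.5, which overlapped, and the part of these cells was not tested. None of the 8 muscle loci (Mir206 and Mir133a-1 among them), 3 immune loci and 8 epithelial and sensory loci was a member, and of 6 mesenchymal loci Mir140 was.

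The genes that make and use microRNAs were read from the same fits. Of 26 tested, 2 passed the threshold between genotypes at the brachial level, both higher in KO, against 2.23% of all genes, and 0 at the lumbar level. By the unadjusted p alone 12 of the 26 passed at the brachial level, against 13.8% of all genes, and 1 passed at the lumbar level, against 4.88%. Among these 12, Dgcr8, Tarbp2 and Prkra were lower in KO, at -0.19, -0.26 and -0.23, and the others were higher. The 2 past the threshold were Ago2, an Argonaute protein, at 0.73 (unadjusted p = 0.0340 in limma) and Tnrc6b, its partner in silencing, at 0.52 (unadjusted p = 0.0387). Both had a limma adjusted p of 0.359, and both overlapped between genotypes. The count was 0 without brachial Isl2 +/- replicate 3 or without brachial KO replicate 3, 1 without brachial KO replicate 2, 4 without brachial Isl2 +/- replicate 2 and 7 without brachial KO replicate 1. It was also 0 with no filter, without a trend in eBayes and with the replicate block, 1 with a pseudocount of 1, with quantile normalization or with coverage in place of TPM, and 9 with TPM as deposited. The median log2 difference of the 26 was 0.23 in brachial and 0.05 in lumbar libraries, beside -0.01 for all genes at each. Drosha, Dgcr8 and Dicer1 differed by 0.23, -0.19 and 0.46 in brachial and by 0.04, 0.03 and 0.06 in lumbar libraries. Lin28b, which blocks let-7 maturation, was higher at the lumbar level by 0.26 (limma adjusted p = 0.0273), and so were Ran by 0.34 and Ddx5 by 0.15. These 3 of 26 stand against 18.5% of all genes past that threshold. The count was 0 without brachial Isl2 +/- replicate 2, and 1 without brachial Isl2 +/- replicate 1, brachial KO replicate 1, lumbar Isl2 +/- replicate 3 or lumbar KO replicate 2, and 1 with TPM as deposited.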

How the data were processed

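Total RNA libraries of 12 ventral spinal cord samples were sequenced by the authors and aligned to mm10. Per the labels, the tools were FastQC 0.11.7, Trimmomatic 0.38, HISAT2 2.1.0, Bowtie2 2.3.4.1 and StringTie 2.1.3b, and the strand setting of the quantification is not given in the sources used here. The deposited tables hold TPM, FPKM and coverage (a signal in reads per base) for each gene, all made by the authors. Read counts were not used here, so a count model could not be fitted. TPM was divided by a median-of-ratios size factor, and log2(TPM + 0.1) was fitted with limma 3.58.1 (R 4.3.3) over all genes with a mean of at least 0.5 TPM in the libraries of a fit, two-sided, with Benjamini-Hochberg adjustment. A fold change on this scale understates the change of low loci. KO was compared with Isl2 +/- within each level, and lumbar with brachial over 12 libraries with genotype as covariate. The named loci were lists of Hox-cluster, neural, Mir17 to Mir92, imprinted and other cell type loci, the 10 highest, and in each direction up to 5 called loci of smallest p whose groups do not overlap. Members, lists and tests were chosen with earlier results of these data known. The fit of 3 against 3 libraries was run on simulated log-normal values with the means of the lumbar libraries. Their spread was set by mean level alone and no outlying library was added. The simulation therefore cannot show how the fit treats loci with single high or low libraries. Tables and plots used Python 3.11.15, pandas 2.3.3 and matplotlib 3.10.9. Sequences came from RefSeq (GRCm38.p6). The alternatives were other scalings, pseudocounts and filters, a replicate block, members outside exons, and leaving out each library.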

Additional observations from a re-analysis of the deposited data

How the results depend on the processing

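Coverage was low for many of these loci, with 136 of 335 members averaging under 3 reads per base, and counts of calls moved with single libraries. With each library left out, brachial KO counts ran from 8 to 17 lower and 21 to 45 higher, and lumbar KO counts from 12 to 20 lower and 16 to 32 higher. Level counts ran from 0 to 6 lower and 5 to 12 higher, and interaction counts from 19 to 41. Processing genes past the threshold ran from 0 to 7 (brachial), 0 to 4 (level) and 0 to 9 (interaction). The log2 difference of Isl2 ran from -0.77 to -0.42 at the brachial and from -0.43 to -0.27 at the lumbar level.

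With TPM as deposited, 4 members were lower at the brachial level, 5 lower and 3 higher at the lumbar level against brachial, and 9 (brachial), 1 (level) and 2 (interaction) processing genes passed. That scaling moved the median of all genes to 0.16 at the brachial level and -0.13 between levels, gave 47 lower and 1211 higher genes at the brachial level and 2214 lower and 646 higher between levels, and put Isl2 at -0.43 at the brachial level. The main scaling gave 148 lower and 377 higher, and 1615 lower and 1486 higher. Outside exons of other genes, 3 members were lower at the brachial level, and 1 was lower and 5 higher between levels. With a minimum of 1 TPM, 6 were lower and 13 higher in lumbar KO. With no filter, 0 were lower and 4 higher between levels, and 0 (brachial) and 2 (interaction) processing genes passed. Processing genes past the brachial threshold numbered 1 with a pseudocount of 1, 1 with quantile normalization, 0 without a trend in eBayes and 1 with coverage in place of TPM, an alternative chosen after seeing the data. With quantile normalization 2 and with coverage 0 passed the interaction, and coverage put Isl2 at -0.71 at the lumbar level. The causes were not tested.

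The 12 same-number pairs between genotypes or between levels had correlations from -0.22 to 0.34, 4 of them over 0.1. Between levels, numbers 1, 2 and 3 gave -0.02, 0.20 and 0.34 in Isl2 +/- and 0.03, -0.22 and 0.07 in KO. With 3 libraries in a group, these values cannot decide whether libraries of one number share an animal. The main fits used no pairing. Between genotypes, 3 of 6 heterozygote libraries correlated best with their own number. With the replicate block, 14 members were lower in brachial KO, 17 lower in lumbar KO and 5 lower between levels, and 0 (brachial) and 2 (interaction) processing genes passed. Of 899 alternatives to the 50 called values of named loci, 751 kept their call, 148 lost it with the same direction, and 0 reversed. Of the 50, 26 kept their call in all alternatives. These values were picked as called in the same libraries, so the counts describe them and are no independent support.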
